A study of Mus musculus with 12 samples.

Results

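Extreme cold at –10°C/–20°C was set against mild cold at 4°C in epididymal white adipose tissue (eWAT), the fat pad beside the testis that stands for visceral fat in mice. The comparison took the 3 arrays of the coldest group, titled –20°C, and the 3 arrays titled 4°C, which are 6 of the 12 arrays of the series, and covered all 14860 genes whose probe set carries 1 gene symbol. All mice were C57BL/6J males that were 7 to 8 weeks old at the start and were caged in groups. The –10°C/–20°C mice lived at –20°C by day and –10°C by night, and the 4°C mice stayed at 4°C. Before cold exposure the study's methods give 1 week at 18°C and then 1 week at 4°C for both groups, and a stepwise lowering of the temperature for the colder one. The exposure lasted 5 weeks in all, with the time at 4°C counted in. For the colder group, the methods give –20°C by day and –10°C by night for the last 3 weeks. The remaining arrays are 3 with –10°C by day and night and 3 with 30°C, the thermoneutral temperature, and they entered the fit and the description of where each gene stands.

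White adipocytes store triglyceride in 1 large droplet and release fatty acids when noradrenaline from sympathetic nerves raises cyclic AMP through β-adrenergic receptors. Insulin, lactate, and ketone bodies act against that release, partly through Gi-coupled receptors on the adipocyte. In sustained cold, adipocytes of some depots gain mitochondria, small droplets, and proteins of brown fat, among them the uncoupling protein UCP1, whereas leptin, the hormone that reports fat stores to the brain, falls as the stores shrink.

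The overall signal was somewhat lower on the arrays with –10°C/–20°C than on 4°C replicates 1 and 2. The median log2 signal of the genes lay between 5.84 and 5.95 with –10°C/–20°C, against 5.94 to 6.23 with 4°C. Each of the 12 arrays had 10210 to 10541 genes over background. Background was set at a log2 signal of 4.52, under which 95% of the means of 712 olfactory receptor genes lie. None of 13 defining adipocyte genes was below background on all 12 arrays. The mean log2 signal of these genes, Lep included, was 10.59 to 10.84 with –10°C/–20°C, against 11.14 to 11.33 with 4°C. Of 14 genes of epididymis and testis, 8 were below background on all 12 arrays, as were 4 of 11 genes of skeletal muscle. The labels number the arrays of a group as biological replicates without naming a mouse, litter, or hybridization day, so that p-values cover only the spread among them. In the study's own list of the arrays, the names of 4°C replicates 1 and 2 and 30°C replicates 1 and 2 lack a letter G that the other 8 names have, and the paper does not say what it stands for. Results are therefore also given with the form of the names as a block in the fit, and within the 8 arrays named with G, where 4°C replicate 3 is the only array of its group.

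Elovl3, Scd3, Cyp2b10, Nr4a3, and Pde4d were at the top of the increases with –10°C/–20°C by fitted difference, and Lep, Hcar1, Lhfpl2, Oxtr, and Hcar2 at the top of the decreases. By limma, 1452 of 14860 genes differed with –10°C/–20°C against 4°C at an adjusted p under 0.05, which is 9.77% of those tested. Of these, 376 were higher (2.53%) and 1076 were lower (7.24%). Differences of at least 2-fold were reached by 99 of the higher and 196 of the lower genes. The median log2 difference was 0.69 among the higher and −0.67 among the lower genes, and −0.04 over all genes. All 3 arrays with –10°C/–20°C lay above all 3 with 4°C in 7.85% of genes and below them in 17.4%, and the arrays of the groups did not overlap in 373 of the 376 higher and 1073 of the 1076 lower genes. In whole tissue, fewer cells of a type and less RNA per cell cannot be told apart. The balance of directions moved with the scaling: a repeated quantile normalization gave 618 higher and 757 lower genes, and centring each array on its median gave 822 and 479. Centring moved the median of all genes to 0.14, a shift of about 0.18 that applies to every difference below. With the array name form as a block, 165 genes were higher and 540 lower.

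**Figure D1:**
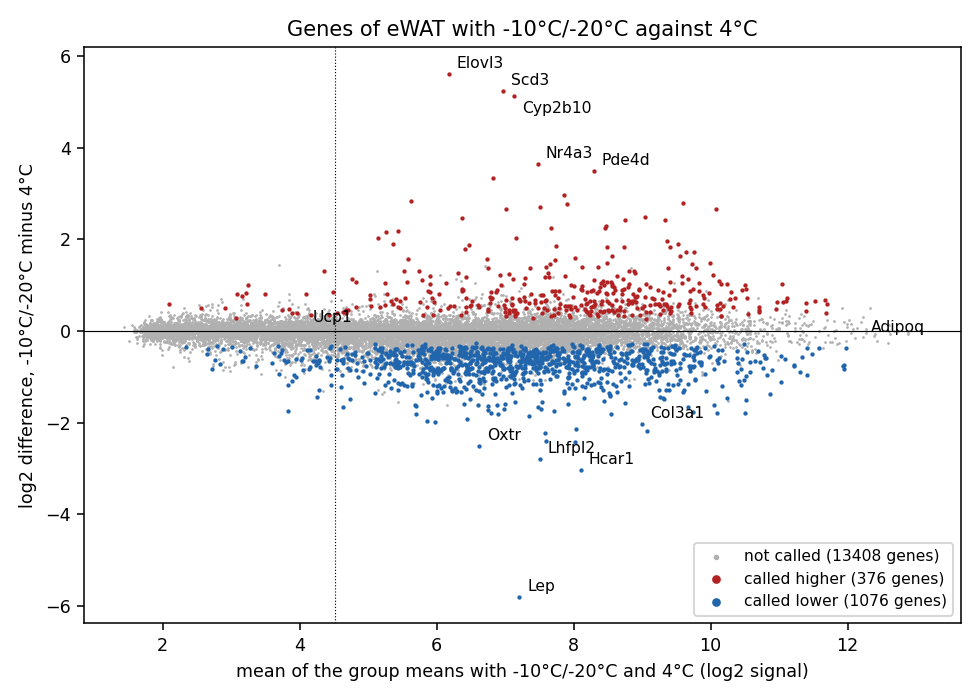
Log2 difference of each of 14860 genes (–10°C/–20°C minus 4°C, y axis) against the mean of the 2 group means (log2 signal, x axis), with 376 genes called higher in red, 1076 called lower in blue, and the background level of 4.52 as a dotted line. Elovl3, Scd3, and Cyp2b10 at the top and Lep at the bottom stand apart from all other genes.

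Elovl3, an elongase that makes very long chain fatty acids in brown fat and skin, was at the top of the increases with Scd3 and Cyp2b10. Their order is not settled, since Elovl3 has a bound only. Its log2 signals were 7.67, 9.63, and 9.66 with –10°C/–20°C and 3.0, 2.94, and 4.16 with 4°C. The groups lay far apart, although replicate 1 of the colder group was well below the other 2 arrays. The fitted log2 difference was 5.62 (SE 0.73, adjusted p = 0.0014, limma). Since no 4°C array had Elovl3 above background, the rise was at least 22.1-fold. Scd3, a stearoyl-CoA desaturase best known from skin, had log2 signals of 8.71, 10.11, and 9.99 with –10°C/–20°C and 3.98, 4.86, and 4.21 with 4°C. It was above background on 1 of the 3 arrays with 4°C, and differed by 5.25 (SE 0.37, adjusted p = 8.0e-05). Cyp2b10, a cytochrome P450 of drug and lipid metabolism, had log2 signals of 7.98, 10.46, and 10.67 with –10°C/–20°C and 4.60, 4.51, and 4.59 with 4°C, a difference of 5.14 (SE 0.55, adjusted p = 6.2e-04). In these 3 genes the spread was wider in the colder group, where replicate 1 was the lowest array. Their differences within the arrays named with G were 4.83 for Elovl3, 5.39 for Scd3, and 5.12 for Cyp2b10, and their calls were kept with the block.

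The next increases by size were in Nr4a3 and Pde4d. Nr4a3, an orphan nuclear receptor induced by cyclic AMP, had log2 signals of 9.68, 9.23, and 9.01 with –10°C/–20°C and 5.37, 5.65, and 5.94 with 4°C (log2 difference 3.66, SE 0.26, adjusted p = 8.0e-05). Pde4d, a phosphodiesterase that breaks down cyclic AMP, had 9.85, 10.07, and 10.23 with –10°C/–20°C and 6.32, 6.67, and 6.67 with 4°C (log2 difference 3.50, SE 0.28, adjusted p = 1.2e-04). In both genes the groups lay far apart with little spread, and both were called without any 1 of the 12 arrays. Mc5r, a melanocortin receptor whose stimulation raises cyclic AMP and lipolysis in mouse adipocytes, rose by 2.77 (SE 0.21, adjusted p = 8.9e-05), and Crem, a transcription factor of the cyclic AMP response, by 1.02 (SE 0.17, adjusted p = 0.0038). Nr4a3 and Crem were the 2 called of 26 measured immediate-early and Nr4a genes, against 2.53% of all genes higher, and none was lower. The mean log2 signal of these 26 genes was 7.31, 7.33, and 7.51 with –10°C/–20°C, against 6.98, 7.27, and 8.18 with 4°C, so that 4°C replicate 3 stood above every other array of the comparison. The median difference of the list was −0.19, and −0.72 with that array as the only 4°C array, where 2 members were called higher and 4 lower.

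**Figure D2:**
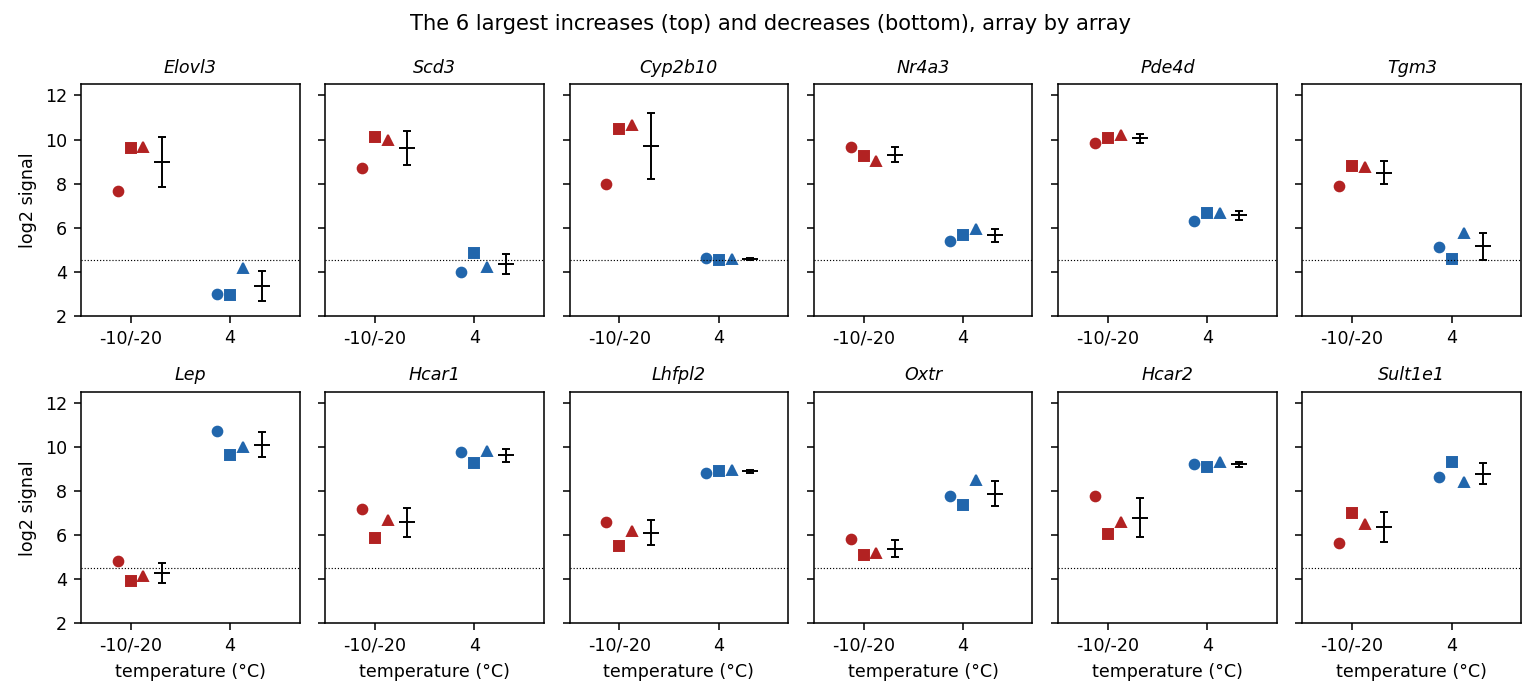
Log2 signal (y axis) of the 6 genes with the largest increases (top) and decreases (bottom) on each array with –10°C/–20°C (red, left) and 4°C (blue, right). Circles, squares, and triangles are replicates 1, 2, and 3, bars are mean and SD (n = 3), and the dotted line is the background level of 4.52. In all 12 genes the arrays of the groups do not overlap, which was a condition for their choice.

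Promoter sequence was examined for the cyclic AMP response element, since Nr4a3 is induced by cyclic AMP. The palindromic cyclic AMP response element TGACGTCA lay within the 250 bases upstream of the start in 4.33% of the 300 higher genes with a promoter in the RefSeq table, 1.66% of 842 lower genes, and 2.32% of all 11869 genes, on either strand. The shorter core TGACG, which the element contains, was present in 33.3% of the higher, 19.5% of the lower, and 25.2% of all genes, and the E-box CACGTG in 11.3%, 9.03%, and 8.64%. These shares describe letters in 1 window and say nothing of binding. Not shown is H2-Aa, a named gene that was lower and also holds the full element. Crem, Mc5r, Cidea, and some other named genes were not among those looked at one by one. The named genes given here may therefore not be all that hold it. Retreg1 holds it upstream of the start shown and not of its other starts. The calls of Dio2 and Uqcrfs1 were lost with the block. The stretches of Dio2, Retreg1, and Uqcrfs1, named genes that were higher and hold the full element, and of Nr4a3, which holds 4 copies of the core, are shown 5′ to 3′ in the direction of the gene (RefSeq, GRCm38.p6), with these elements in capitals.
Dio2 (chr12:90739039-90739288, minus strand): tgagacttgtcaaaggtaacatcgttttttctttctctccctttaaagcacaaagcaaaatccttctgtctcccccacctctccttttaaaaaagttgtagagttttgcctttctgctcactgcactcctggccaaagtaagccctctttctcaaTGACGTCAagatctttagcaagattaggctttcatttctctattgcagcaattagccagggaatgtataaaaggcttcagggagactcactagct
Retreg1 (chr15:25843048-25843297, plus strand): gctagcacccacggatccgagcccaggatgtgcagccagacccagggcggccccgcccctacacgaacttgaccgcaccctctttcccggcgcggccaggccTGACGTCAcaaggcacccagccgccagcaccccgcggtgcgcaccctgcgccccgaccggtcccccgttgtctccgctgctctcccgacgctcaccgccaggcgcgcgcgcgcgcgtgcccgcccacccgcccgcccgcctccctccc
Uqcrfs1 (chr13:30545317-30545566, minus strand): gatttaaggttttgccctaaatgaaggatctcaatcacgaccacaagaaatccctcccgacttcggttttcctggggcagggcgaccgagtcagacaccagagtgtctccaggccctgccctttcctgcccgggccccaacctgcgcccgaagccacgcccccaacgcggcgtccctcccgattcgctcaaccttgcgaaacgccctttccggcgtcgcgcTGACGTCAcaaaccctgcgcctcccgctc
Nr4a3 (chr4:48045055-48045304, plus strand): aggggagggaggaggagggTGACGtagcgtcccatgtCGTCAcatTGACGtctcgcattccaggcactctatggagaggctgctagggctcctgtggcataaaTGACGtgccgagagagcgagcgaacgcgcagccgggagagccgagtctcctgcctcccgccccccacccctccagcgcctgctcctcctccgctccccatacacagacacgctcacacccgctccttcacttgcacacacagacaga

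The other 10 of the 15 largest increases included Mc5r, given above, and genes of several functions. Apoc3, an apolipoprotein that inhibits lipoprotein lipase, had log2 signals of 8.06, 10.08, and 9.91 with –10°C/–20°C and 5.99, 6.77, and 6.38 with 4°C (log2 difference 2.97, SE 0.47, adjusted p = 0.0029). Mfsd2a, a transporter of lysophosphatidylcholine, rose at least 5.77-fold (adjusted p = 0.0015), with every 4°C array below background. Gpcpd1, which cleaves glycerophosphocholine, rose by 2.67 (SE 0.35, adjusted p = 0.0014). None of these 3 genes overlapped between the groups, which was a condition for their choice among the largest increases. Tgm3, a transglutaminase known from skin, rose by 3.34 (SE 0.56, adjusted p = 0.0042), and its block value was 2.97 (adjusted p = 0.041). Trp53inp1, a p53-induced protein of autophagy, rose by 2.78 (SE 0.34, adjusted p = 0.0011) and Retreg1, a receptor for autophagy of the endoplasmic reticulum, by 2.65 (SE 0.50, adjusted p = 0.0072). Slc7a8, an exchanger of neutral amino acids, rose by 2.48 (SE 0.26, adjusted p = 6.1e-04). Prg4 and Acot3, the other 2 of the 15 largest increases, rested on less. The call of Prg4, a secreted proteoglycan (log2 difference 2.70, adjusted p = 0.039), was lost without any 1 array of 30°C or 4°C, –10°C replicate 2, or –10°C/–20°C replicate 2 or 3. It was 1.83 (adjusted p = 0.12) without –10°C/–20°C replicate 2, which at 10.60 was the high array of its group. That of Acot3, a peroxisomal thioesterase (2.46, adjusted p = 0.018), was lost without 4°C replicate 1 or 2 or –10°C/–20°C replicate 2 or 3, with adjusted p up to 0.072 (2.20 without –10°C/–20°C replicate 3). Neither was called with the block (adjusted p = 0.092 for Prg4 and 0.10 for Acot3).

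Part of the thermogenic program rose, and the array signal of Ucp1 was near background in both groups. Of 28 measured members, 9 were higher and 1 was lower, against 2.53% and 7.24% of all genes, with a median log2 difference of 0.13. With the block, 4 were higher and 1 lower, and without –10°C/–20°C replicate 3, 5 were higher. Cidea, a lipid droplet protein of brown fat, had log2 signals of 7.18, 8.44, and 8.90 with –10°C/–20°C and 6.07, 5.75, and 6.62 with 4°C (log2 difference 2.03, SE 0.37, adjusted p = 0.0058). The arrays did not overlap, but the call of Cidea was lost with the block (1.75, adjusted p = 0.055). Pdk4, a kinase that switches off pyruvate dehydrogenase when fatty acids are burnt, had 10.07, 10.30, and 10.66 with –10°C/–20°C and 8.30, 8.26, and 8.56 with 4°C (log2 difference 1.97, SE 0.15, adjusted p = 8.9e-05), and its call was kept with the block.

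Dio2, the deiodinase that activates thyroid hormone, had log2 signals of 6.34, 6.47, and 6.14 with –10°C/–20°C and 4.45, 4.38, and 4.42 with 4°C. All arrays with 4°C were below background, so that Dio2 rose at least 3.47-fold (measured log2 difference 1.90, SE 0.47, adjusted p = 0.027). Irf4, a transcription factor of the cold response in fat, had 10.71, 10.46, and 10.50 with –10°C/–20°C and 8.64, 8.19, and 7.54 with 4°C (log2 difference 2.43, SE 0.63, adjusted p = 0.034). The arrays of Dio2 were close together within both groups, those of Irf4 with –10°C/–20°C only, and the standard errors come from the spread pooled over all 4 groups. Both calls were lost without any 1 of the 6 arrays compared, with adjusted p up to 0.094 for Dio2 (1.82 without –10°C/–20°C replicate 2) and 0.095 for Irf4 (2.14 without 4°C replicate 3), and with the block (adjusted p = 0.11 for Dio2 and 0.15 for Irf4). Cox8b, a cytochrome c oxidase subunit of brown fat and muscle, had 9.36, 8.50, and 8.73 with –10°C/–20°C and 8.10, 7.14, and 8.01 with 4°C (log2 difference 1.11, SE 0.30, adjusted p = 0.042). Its call was lost without 30°C replicate 1 or 3, 4°C replicate 1 or 2, –10°C replicate 2, or any array with –10°C/–20°C (0.81, adjusted p = 0.14, without 4°C replicate 2) and with the block (adjusted p = 0.25).

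Ucp1 had log2 signals of 4.85, 4.01, and 4.25 with –10°C/–20°C and 3.78, 3.65, and 3.93 with 4°C. A single array was above background, and the difference of 0.58 (SE 0.17) did not pass (adjusted p = 0.059), although without –10°C/–20°C replicate 2 it was 0.76 (adjusted p = 0.022). Ppargc1a, the coactivator of mitochondrial biogenesis, had 9.19, 8.04, and 7.61 with –10°C/–20°C and 7.05, 7.85, and 6.44 with 4°C, overlapping ranges with a difference of 1.17 (SE 0.43, adjusted p = 0.13). Prdm16, a transcription factor of the brown lineage, differed by −0.12 (SE 0.10, adjusted p = 0.61). Ebf2, a factor that marks brown and beige precursors, was the member that fell, with 7.19, 7.14, and 6.83 with –10°C/–20°C against 7.94, 7.91, and 7.68 with 4°C (log2 difference −0.79, SE 0.13, adjusted p = 0.0040). Cox7a1, another brown fat gene that the paper names, was not analysed here.

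Most mitochondrial genes did not pass the test, and those called were mainly higher, by small amounts. In the respiratory chain and ATP synthase, 5 of 46 measured genes were higher and none was lower, against 2.53% and 7.24% of all genes, and the median log2 difference was 0.23. The arrays did not overlap and lay higher with –10°C/–20°C in 23 of the 46, against 7.85% of all genes. In the tricarboxylic acid cycle and pyruvate dehydrogenase, 3 of 22 were higher, with a median of 0.28, and in mitochondrial fatty acid oxidation 5 of 17 were higher and 1 lower, with a median of 0.14. Ndufv1, a subunit of complex I, rose by 0.46 (SE 0.09, adjusted p = 0.0087), and Dlst, of the oxoglutarate dehydrogenase complex, by 0.52 (SE 0.09, adjusted p = 0.0056). Slc25a20, which carries acylcarnitines into the matrix, rose by 0.87 (SE 0.17, adjusted p = 0.0080). Cpt1a, the liver form of the carnitine palmitoyltransferase at the outer membrane, fell by 0.71 (SE 0.12, adjusted p = 0.0043). Pdk2, a further inhibitor of pyruvate dehydrogenase, rose by 0.82 (SE 0.11, adjusted p = 0.0014). These counts depended on the setting. Higher genes numbered 15, 11, and 7 in the 3 lists when arrays were centred, and 0, 1, and 0 with the block, where the medians were 0.13, 0.17, and 0.14 and Pdk2 was the member kept. Counts of the respiratory chain were 3 without 4°C replicate 1 or 2 or –10°C/–20°C replicate 1 or 3, and those of fatty acid oxidation were 2 or 3 without 4°C replicate 1 or 2 or –10°C/–20°C replicate 2 or 3. In the cycle, 5 genes were higher without 30°C replicate 1 or –10°C/–20°C replicate 1.

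Of 17 peroxisomal genes, 2 were higher and 2 lower, against 2.53% and 7.24% of all genes. Ehhadh, the bifunctional enzyme of peroxisomal oxidation, had log2 signals of 9.67, 10.61, and 11.14 with –10°C/–20°C and 8.77, 8.32, and 8.65 with 4°C (log2 difference 1.89, SE 0.36, adjusted p = 0.0077), and was not called with the block (1.53, adjusted p = 0.075). Abcd2, which imports very long chain acyl-CoA into peroxisomes, had 10.85, 10.42, and 10.16 with –10°C/–20°C and 11.64, 11.55, and 11.55 with 4°C (log2 difference −1.11, SE 0.15, adjusted p = 0.0015). Its call was kept with the block. Pecr, an enoyl-CoA reductase of chain elongation, rose by 0.86 (SE 0.15, adjusted p = 0.0043), and Crot, a carnitine octanoyltransferase, fell by 0.73 (SE 0.12, adjusted p = 0.0039).

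Lipid synthesis genes were called in both directions. Of all genes, 2.53% were higher and 7.24% lower. In fatty acid synthesis 3 of 19 genes were higher and 3 lower, with a median of 0.05, and the arrays of –10°C/–20°C and 4°C averaged 10.12 to 10.17 and 9.60 to 10.15 over the list. Acacb, the acetyl-CoA carboxylase at the mitochondrial surface whose product inhibits carnitine palmitoyltransferase, had 10.25, 10.38, and 10.43 with –10°C/–20°C and 9.40, 9.02, and 9.53 with 4°C (log2 difference 1.04, SE 0.13, adjusted p = 0.0013). Srebf1, the transcription factor that insulin uses to drive lipogenesis, had 8.03, 7.90, and 8.13 with –10°C/–20°C and 9.31, 8.74, and 9.59 with 4°C (log2 difference −1.19, SE 0.23, adjusted p = 0.0074). Both were called with the block too (0.87 for Acacb and −1.48 for Srebf1). In cholesterol synthesis 3 of 18 were higher, with Pmvk, the phosphomevalonate kinase, at 1.48 (SE 0.23, adjusted p = 0.0026) and Cyp51, the lanosterol demethylase, at 1.84 (SE 0.33, adjusted p = 0.0058), although the median of the list was −0.09, and 0.09 when arrays were centred. With the block, Pmvk alone of the list was called (1.30, adjusted p = 0.030). In triglyceride synthesis 2 of 14 were higher and 1 was lower. Lpin1, a phosphatidate phosphatase and coactivator, rose by 0.65 (SE 0.11, adjusted p = 0.0036), and its call was kept with the block. Gpat4 (0.36, adjusted p = 0.025) was not called without any 1 array of 4°C or –10°C/–20°C replicate 1 or 3, with adjusted p up to 0.097 (0.31 without –10°C/–20°C replicate 3). Mogat1 (−0.76, adjusted p = 0.023) was not called without 4°C replicate 1 or 2 or –10°C/–20°C replicate 2, with adjusted p up to 0.095 (−0.62 without the last of these). Both are acyltransferases of triglyceride assembly.

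**Figure D3:**
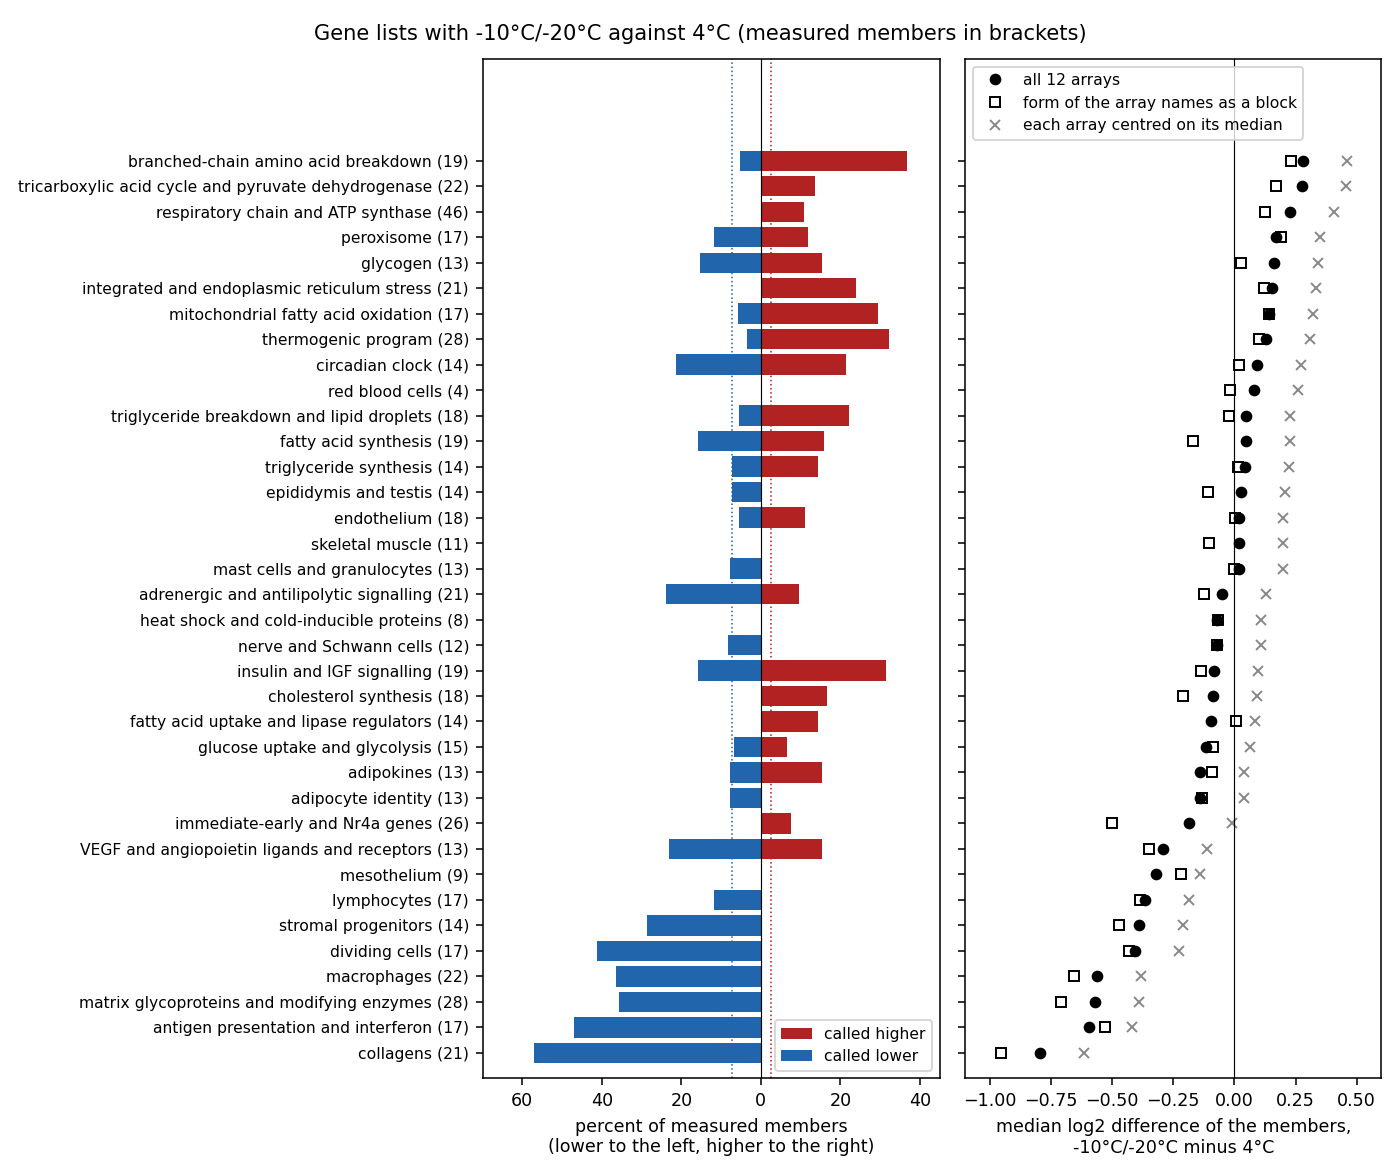
Share of measured members called higher (red, to the right) or lower (blue, to the left) with –10°C/–20°C than with 4°C in each of 36 gene lists (left panel, percent), with dotted lines at the 2.53% and 7.24% of all genes. The right panel gives each list's median log2 difference with all 12 arrays (dots), with the array name form as a block (squares), and with arrays centred (crosses). Collagens reach the lowest median, −0.80, and branched-chain amino acid breakdown the highest, 0.28.

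Of the receptors that bear on lipolysis, Hcar1, Hcar2, and Npr3 were lower. Mc5r, given above and not a member of the list that follows, was higher. The receptor genes Npr1 and Ptger3 of that list were not called. In adrenergic and antilipolytic signalling, 2 of 21 measured genes were higher and 5 lower, against 2.53% and 7.24% of all genes. The same counts were found with the block. Repeated quantile normalization gave 5 higher and 5 lower, and centred arrays gave 6 and 4. The higher ones were Pde4d and Adcy3, an adenylyl cyclase (1.24), and the lower ones outside the receptors were Pde4b and Prkar2b, at −0.69 and −0.59. These 3 genes were named after their values were seen. Hcar1, a lactate receptor that restrains lipolysis, had log2 signals of 7.20, 5.88, and 6.68 with –10°C/–20°C and 9.77, 9.30, and 9.82 with 4°C (log2 difference −3.04, SE 0.30, adjusted p = 4.6e-04, limma). Hcar2, the receptor for the ketone body β-hydroxybutyrate and for niacin, had 7.77, 6.05, and 6.58 with –10°C/–20°C and 9.23, 9.12, and 9.34 with 4°C (log2 difference −2.43, SE 0.36, adjusted p = 0.0022). Npr3, the clearance receptor that removes the lipolytic natriuretic peptides, had 8.54, 7.53, and 7.87 with –10°C/–20°C and 10.22, 9.98, and 10.27 with 4°C (log2 difference −2.18, SE 0.39, adjusted p = 0.0060). In all 3 genes the arrays with 4°C were tight and those with –10°C/–20°C were spread, with replicate 2 the lowest. Ffar2, a receptor for short chain fatty acids that also couples to Gi, fell by 1.97 (SE 0.29, adjusted p = 0.0021), to 5.62, 4.18, and 4.83 with –10°C/–20°C against 6.92, 7.01, and 6.61 with 4°C. The genes of the β3-adrenergic receptor and of hormone-sensitive lipase were not analysed here.

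Among droplet genes, Plin5 and Ces1d rose beside Cidea, given above, and Plin4 fell. Of 18 genes of triglyceride breakdown and lipid droplets, 4 were higher and 1 was lower, against 2.53% and 7.24% of all genes. With the block 2 were higher. Plin5, a perilipin that ties droplets to mitochondria, had log2 signals of 7.13, 7.82, and 8.08 with –10°C/–20°C and 6.50, 6.45, and 6.68 with 4°C (log2 difference 1.13, SE 0.19, adjusted p = 0.0045). Ces1d, a carboxylesterase with triglyceride hydrolase activity, rose by 0.64 (SE 0.12, adjusted p = 0.0070). Plin4, a perilipin of small droplets, fell by 0.57 (SE 0.11, adjusted p = 0.0092), a call that was lost with the block (adjusted p = 0.055) and when arrays were centred. Among 14 genes of fatty acid uptake, Slc27a1, a fatty acid transporter, rose by 0.67 (SE 0.12, adjusted p = 0.0047), and was called with the block. Gpihbp1, which holds lipoprotein lipase on capillaries, differed by 0.53 (adjusted p = 0.046) with overlapping arrays. It was not called without any 1 array of 30°C or –10°C, 4°C replicate 1 or 2, or –10°C/–20°C replicate 1 or 3, with adjusted p up to 0.16 (0.44 without 4°C replicate 2).

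Lep, which encodes leptin, stood apart among the decreases. It had log2 signals of 4.81, 3.94, and 4.16 with –10°C/–20°C and 10.72, 9.62, and 10.003 with 4°C. With –10°C/–20°C it was above background on 1 of 3 arrays, and the log2 difference was −5.81 (SE 0.83, adjusted p = 0.0017), −5.95 with the block and −5.70 within the arrays named with G. Lep was the 1 of 13 adipocyte identity genes that fell, against 7.24% of all genes, and the rest of the list did not pass. Adipoq, which encodes adiponectin, had 12.19, 12.10, and 12.17 with –10°C/–20°C and 12.33, 12.35, and 12.20 with 4°C, a difference of −0.14 (SE 0.08, adjusted p = 0.36). Retn, which encodes resistin, differed by −0.07 (SE 0.09, adjusted p = 0.73). The median of the list was −0.14, and 0.04 when arrays were centred. Among adipokines, Agt, the precursor of angiotensin, had 11.46, 11.71, and 11.50 with –10°C/–20°C and 10.39, 10.73, and 10.49 with 4°C (log2 difference 1.02, SE 0.11, adjusted p = 6.4e-04).

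The other large decreases were in a receptor, a transporter, an enzyme, and regulators. Oxtr, the oxytocin receptor, had log2 signals of 5.82, 5.11, and 5.20 with –10°C/–20°C and 7.77, 7.37, and 8.49 with 4°C (log2 difference −2.50, SE 0.35, adjusted p = 0.0016). Slc6a13, a GABA and taurine transporter, fell by 2.22 (SE 0.37, adjusted p = 0.0038), and Lhfpl2, a membrane protein, by 2.79 (SE 0.29, adjusted p = 5.4e-04), with 6.62, 5.50, and 6.20 with –10°C/–20°C against 8.84, 8.90, and 8.97 with 4°C. Sult1e1, the estrogen sulfotransferase, fell by 2.41 (SE 0.48, adjusted p = 0.0088), and its call was lost with the block (adjusted p = 0.054). Plagl1, an imprinted zinc finger factor, fell by 1.85 (SE 0.23, adjusted p = 0.0011) and Klhdc7a, a kelch-domain protein, by 1.81 (SE 0.26, adjusted p = 0.0016). The arrays of the groups did not overlap in any of these 6 genes, which was a condition for their choice.

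Insulin and glycogen genes were called in both directions. Of all genes, 2.53% were higher and 7.24% lower. In insulin and IGF signalling 6 of 19 were higher and 3 lower, with the largest value in Igfbp3, an IGF-binding protein, at 8.07, 9.36, and 8.61 with –10°C/–20°C and 6.91, 6.93, and 6.61 with 4°C (log2 difference 1.86, SE 0.33, adjusted p = 0.0051). Grb10, an adaptor that inhibits insulin receptor signalling, rose by 0.65 (SE 0.12, adjusted p = 0.0071). With the block 2 were higher and none lower, Igfbp3 was kept, and Grb10 was not (adjusted p = 0.066). Without 4°C replicate 1 or 3 or –10°C/–20°C replicate 2 or 3, 3 were higher, and 1 or 0 were lower without 4°C replicate 1 or 2, –10°C replicate 2 or 3, or any array with –10°C/–20°C. In glycogen metabolism 2 of 13 were higher and 2 lower. Ppp1r3c, a glycogen-targeting subunit of protein phosphatase 1, had 5.53, 5.46, and 5.56 with –10°C/–20°C and 6.32, 6.25, and 6.36 with 4°C (log2 difference −0.80, SE 0.15, adjusted p = 0.0080). Gys2, a glycogen synthase, had 8.71, 9.64, and 9.81 with –10°C/–20°C and 8.07, 7.12, and 8.05 with 4°C. Its difference of 1.63 (adjusted p = 0.028) was not called without 4°C replicate 1 or 2 or –10°C/–20°C replicate 2 or 3 (1.51, adjusted p = 0.10, without –10°C/–20°C replicate 2), nor with the block (1.15, adjusted p = 0.21).

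Breakdown of branched-chain amino acids was the list with the highest median, 0.28, and 7 of its 19 measured genes were higher and 1 was lower, against 2.53% and 7.24% of all genes. Centred arrays gave 10 higher and none lower. Bcat2, the mitochondrial aminotransferase that starts this pathway, had log2 signals of 10.05, 10.34, and 10.23 with –10°C/–20°C and 9.39, 9.16, and 9.34 with 4°C (log2 difference 0.91, SE 0.13, adjusted p = 0.0020). Dbt and Bckdha, subunits of the branched-chain ketoacid dehydrogenase, rose by 0.70 (SE 0.11, adjusted p = 0.0027) and 0.61 (SE 0.12, adjusted p = 0.0090). With the block, Bcat2 and Dbt were the 2 members called and the median was 0.23. The count was 4 without 4°C replicate 3 or –10°C/–20°C replicate 2 or 3. Oxct1, which activates ketone bodies for oxidation, was the lower member (−0.52, named after its value was seen), and was not called without 4°C replicate 1 or 2 or any 1 of the arrays with –10°C/–20°C.

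Cdkn1a and Slc3a2 had the largest increases among the stress genes. Of 21 genes of the integrated and endoplasmic reticulum stress responses, 5 were higher and none was lower, against 2.53% and 7.24% of all genes, and 3 were higher and 1 lower with the block. Cdkn1a, which encodes the cell cycle inhibitor p21, had log2 signals of 8.63, 8.94, and 8.79 with –10°C/–20°C and 6.44, 6.59, and 6.61 with 4°C (log2 difference 2.24, SE 0.22, adjusted p = 4.5e-04). Slc3a2, the heavy chain that partners Slc7a8, had 10.68, 10.79, and 10.53 with –10°C/–20°C and 9.52, 9.78, and 9.43 with 4°C (log2 difference 1.09, SE 0.15, adjusted p = 0.0014). Both were kept with the block. Chac1, which degrades glutathione, rose by 0.98 (SE 0.19, adjusted p = 0.0090) and was not called with the block (adjusted p = 0.086). Of 8 heat shock and cold-inducible genes none was called. Cirbp, the cold-inducible RNA-binding protein, had 9.07, 9.04, and 8.90 with –10°C/–20°C and 8.24, 8.75, and 8.54 with 4°C, a difference of 0.50 (SE 0.26, adjusted p = 0.30).

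Clock genes were called in both directions, with 3 of 14 higher and 3 lower, against 2.53% and 7.24% of all genes. Bhlhe41, a repressor of the clock, had log2 signals of 5.95, 5.56, and 5.89 with –10°C/–20°C and 7.29, 7.96, and 7.03 with 4°C (log2 difference −1.63, SE 0.27, adjusted p = 0.0036). It was the member called with the block. Dbp, an output gene of the clock, had 9.76, 9.35, and 8.60 with –10°C/–20°C and 10.98, 10.75, and 10.83 with 4°C. Its difference of −1.62 (adjusted p = 0.025) was not called without any 1 of the 4°C arrays or –10°C/–20°C replicate 2 or 3 (−1.30, adjusted p = 0.095, without –10°C/–20°C replicate 3). Nfil3, a repressor at the same sites as Dbp, had 6.26, 7.80, and 7.88 with –10°C/–20°C and 5.54, 5.51, and 5.53 with 4°C. Its difference of 1.79 (adjusted p = 0.020) was not called without 4°C replicate 1 or 2 or –10°C/–20°C replicate 2 or 3 (1.55, adjusted p = 0.087, without –10°C/–20°C replicate 2). The hour at which the tissue was taken is not in the labels.

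Collagen chains held 4 of the larger decreases, in Col15a1, Col3a1, Col1a1, and Col1a2. Of 21 measured collagen genes, 12 were lower and none was higher, against 7.24% of all genes, with a median log2 difference of −0.80. The arrays of 15 of them lay lower with –10°C/–20°C without overlap, against 17.4% of all genes. Col3a1, a chain of fibrillar collagen, had log2 signals of 8.49, 7.57, and 7.89 with –10°C/–20°C and 9.85, 10.21, and 9.99 with 4°C (log2 difference −2.03, SE 0.24, adjusted p = 9.4e-04). Col1a1, of type I collagen, had 8.12, 7.02, and 7.80 with –10°C/–20°C and 9.13, 9.80, and 9.43 with 4°C (log2 difference −1.81, SE 0.28, adjusted p = 0.0025). Col15a1, a collagen of basement membranes, had 7.94, 5.97, and 6.96 with –10°C/–20°C and 9.25, 8.83, and 9.24 with 4°C (log2 difference −2.15, SE 0.40, adjusted p = 0.0069). In each of these genes –10°C/–20°C replicate 2 was the lowest array. Col1a2 fell by 1.48 (SE 0.19, adjusted p = 0.0014), and the other members called were chains of types IV, V, and VI, from −0.58 for Col4a2 to −1.24 for Col5a2, named here after their values were seen. With the block 10 were lower and with arrays centred 8, and 8 to 12 without any 1 array.

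Of 28 matrix glycoproteins and modifying enzymes, 10 were lower and none was higher, against 7.24% and 2.53% of all genes, with a median of −0.57. Loxl2, a lysyl oxidase that cross-links collagen, had log2 signals of 6.63, 6.34, and 6.22 with –10°C/–20°C and 7.63, 7.85, and 7.41 with 4°C (log2 difference −1.23, SE 0.19, adjusted p = 0.0030). Loxl1, which cross-links elastin, fell by 1.04 (SE 0.18, adjusted p = 0.0051). Both were called with the block, where 6 members were lower. The count was 5 without 4°C replicate 2 and 6 without –10°C/–20°C replicate 1 or 3. Of 14 stromal progenitor genes 4 were lower, against 7.24% of all genes. The mean log2 signal of the 14 was 7.47 to 7.52 with –10°C/–20°C, against 7.84 to 8.02 with 4°C. Ebf1, a transcription factor of adipocyte precursors and adipocytes, had 9.49, 9.33, and 9.08 with –10°C/–20°C and 10.08, 10.14, and 10.06 with 4°C (log2 difference −0.80, SE 0.11, adjusted p = 0.0017). The count was 1 or 2 without 30°C replicate 1 or 2, any 1 array of 4°C, or –10°C/–20°C replicate 2 or 3, and 1 when arrays were centred, and Ebf1 was called without any 1 array. Whether the lower signal of stromal markers has a part in the matrix result was not tested.

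Cd83, Fcrls, Retnla, and Folr2, genes of macrophages or antigen-presenting cells, were lower. Of 22 measured genes in the macrophage list, 8 were lower and none was higher, against 7.24% and 2.53% of all genes, with a median of −0.56. The mean log2 signal of the 22 was 7.06 to 7.29 with –10°C/–20°C, against 7.74 to 7.82 with 4°C. Cd83, a surface protein of activated antigen-presenting cells, had log2 signals of 4.94, 4.77, and 5.23 with –10°C/–20°C and 6.80, 6.90, and 7.22 with 4°C (log2 difference −1.99, SE 0.13, adjusted p = 8.0e-05). Folr2, a folate receptor of resident macrophages, had 7.85, 7.67, and 7.54 with –10°C/–20°C and 9.34, 9.19, and 9.12 with 4°C (log2 difference −1.53, SE 0.11, adjusted p = 8.0e-05). Retnla, a secreted protein of alternatively activated macrophages, had 9.51, 8.91, and 9.17 with –10°C/–20°C and 11.28, 11.12, and 10.55 with 4°C (log2 difference −1.78, SE 0.25, adjusted p = 0.0016). Fcrls, an Fc receptor-like protein found in macrophages and microglia, fell by 1.91 (SE 0.25, adjusted p = 0.0014). In all 4 genes the arrays of the groups did not overlap, which was a condition for naming Cd83 and Fcrls among the largest decreases. The calls of the 4 genes were kept with the block and without any 1 array. Cd68, a general macrophage marker, fell by 0.79 (SE 0.17, adjusted p = 0.013), and its call was lost without –10°C/–20°C replicate 2 or 3 (−0.69, adjusted p = 0.057, without replicate 3). With the block 7 members were lower, and 6 to 10 without any 1 array.

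In antigen presentation and interferon, H2-Ab1 and H2-Aa fell, with 8 of 17 lower, against 7.24% of all genes, none higher, and a median of −0.60. H2-Ab1, a chain of MHC class II, had log2 signals of 10.37, 9.52, and 9.65 with –10°C/–20°C and 11.15, 11.17, and 10.77 with 4°C (log2 difference −1.18, SE 0.19, adjusted p = 0.0036). H2-Aa, its partner chain, fell by 0.90 (SE 0.15, adjusted p = 0.0045), and Cd74, the invariant chain, by 0.97 (SE 0.19, adjusted p = 0.0094), although Cd74 was not called with the block (adjusted p = 0.086). With the block 2 members were lower, with arrays centred 4, and without 4°C replicate 1 or –10°C/–20°C replicate 2, 4 and 5. Of 17 lymphocyte genes 2 were lower, against 7.24% of all genes, and 1 without 30°C replicate 1, –10°C replicate 2, any 1 array of 4°C, or –10°C/–20°C replicate 2 or 3. Cd3g, a chain of the T cell receptor complex, fell at least 1.94-fold (adjusted p = 0.010), to signals under background on the 3 arrays of the colder group, a call that was lost with the block (adjusted p = 0.087). Whether the lower signal of macrophage markers has a part in that of the antigen presentation genes was not tested.

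Dividing-cell genes were dim in both groups. Of 17 measured, 8 were below background on all 12 arrays, and 7 were called lower, against 7.24% of all genes. Ccna2, the cyclin of S phase, had log2 signals of 4.92, 4.32, and 4.82 with –10°C/–20°C and 5.72, 5.59, and 5.60 with 4°C (log2 difference −0.95, SE 0.17, adjusted p = 0.0059). Top2a, the topoisomerase of dividing cells, fell at least 1.33-fold (adjusted p = 0.0014), and no array of the colder group had it above background. With the block 3 were lower, and 3 or 4 without any 1 array of 4°C or without –10°C/–20°C replicate 2 or 3.

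Angpt1, Vegfd, and Nrp1 fell among vascular ligands and receptors. Of 13 ligands and receptors of the VEGF and angiopoietin families, 2 were higher and 3 lower, against 2.53% and 7.24% of all genes. With the block 3 were lower and none was higher. Angpt1, the ligand that stabilizes vessels through Tie2, had log2 signals of 6.27, 6.01, and 6.13 with –10°C/–20°C and 7.79, 7.95, and 7.80 with 4°C (log2 difference −1.71, SE 0.17, adjusted p = 4.4e-04). Vegfd, a ligand of lymphatic growth, fell by 0.66 (SE 0.09, adjusted p = 0.0015), and Nrp1, a coreceptor, by 0.65 (SE 0.11, adjusted p = 0.0051). Kdr, the main VEGF receptor of endothelium, had 9.64, 9.61, and 9.67 with –10°C/–20°C and 8.89, 9.25, and 9.16 with 4°C (log2 difference 0.54, SE 0.11, adjusted p = 0.010), a call that was lost with the block (adjusted p = 0.067). Of 18 endothelial markers 2 were higher and 1 was lower, against 2.53% and 7.24% of all genes. Centred arrays gave 5 higher, the block gave none, and 1 was lower in both. The mean log2 signal of the 18 was 7.83 to 8.0 with –10°C/–20°C and 7.66 to 8.0 with 4°C. Aplnr, the apelin receptor of sprouting endothelium, was the lower one, at 5.70, 5.67, and 5.53 with –10°C/–20°C and 6.75, 6.77, and 7.34 with 4°C (log2 difference −1.32, SE 0.18, adjusted p = 0.0014).

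The remaining marker lists cover other cells that the fat pad could hold. Of 12 genes of nerve and Schwann cells 1 was lower, as was 1 of 13 of mast cells and granulocytes, against 7.24% of all genes. In each list the count was 0 when some single arrays of the groups compared were left out. Of 9 mesothelial genes, which cover the surface of the pad, none was called, and their mean log2 signal was 7.32 to 7.49 with –10°C/–20°C and 7.24 to 8.27 with 4°C. Of 11 genes of skeletal muscle and 4 of red blood cells none was called. With 2.53% of all genes higher and 7.24% lower, lists this short would hold few calls in any case. Alas2, the heme enzyme of red cells, had 4.65, 8.29, and 5.64 with –10°C/–20°C and 5.34, 5.38, and 6.37 with 4°C, so that –10°C/–20°C replicate 2 stood apart. In the list of epididymis and testis, Star was the 1 of 14 members called, against 7.24% of all genes lower. Star, a cholesterol carrier of steroid-making cells, had 5.41, 5.41, and 5.21 with –10°C/–20°C and 6.32, 6.57, and 6.26 with 4°C (log2 difference −1.04, SE 0.12, adjusted p = 8.8e-04, limma).

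Where the other groups stood was asked of the called genes as a description, since 4°C and –10°C/–20°C had chosen them. The mean with –10°C lay nearer to that with 4°C than to that with –10°C/–20°C in 79.8% of the higher and 84.2% of the lower genes, against 63.3% of all genes. The mean with 30°C lay nearer to 4°C in 89.9% of the higher and 88.2% of the lower genes, against 64.5% of all genes. The group means that follow run over 30°C, 4°C, –10°C, then –10°C/–20°C. Cyp2b10 averaged 5.12, 4.57, 5.33, and 9.70. Hcar1 averaged 8.66, 9.63, 9.73, and 6.59. Lep averaged 10.78, 10.11, 9.40, and 4.30, with an SD of 2.20 over the arrays with –10°C. In Cidea, the –10°C mean of 7.55 was nearer to the 8.18 with –10°C/–20°C than to the 6.15 with 4°C. Cdkn1a and Slc7a8 did not follow the temperature. Cdkn1a averaged 8.62, 6.54, 7.55, and 8.79, and Slc7a8 averaged 9.36, 7.80, 7.77, and 10.28. Oxtr averaged 6.09, 7.88, 7.48, and 5.38, with its highest group at 4°C.

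**Figure D4:**
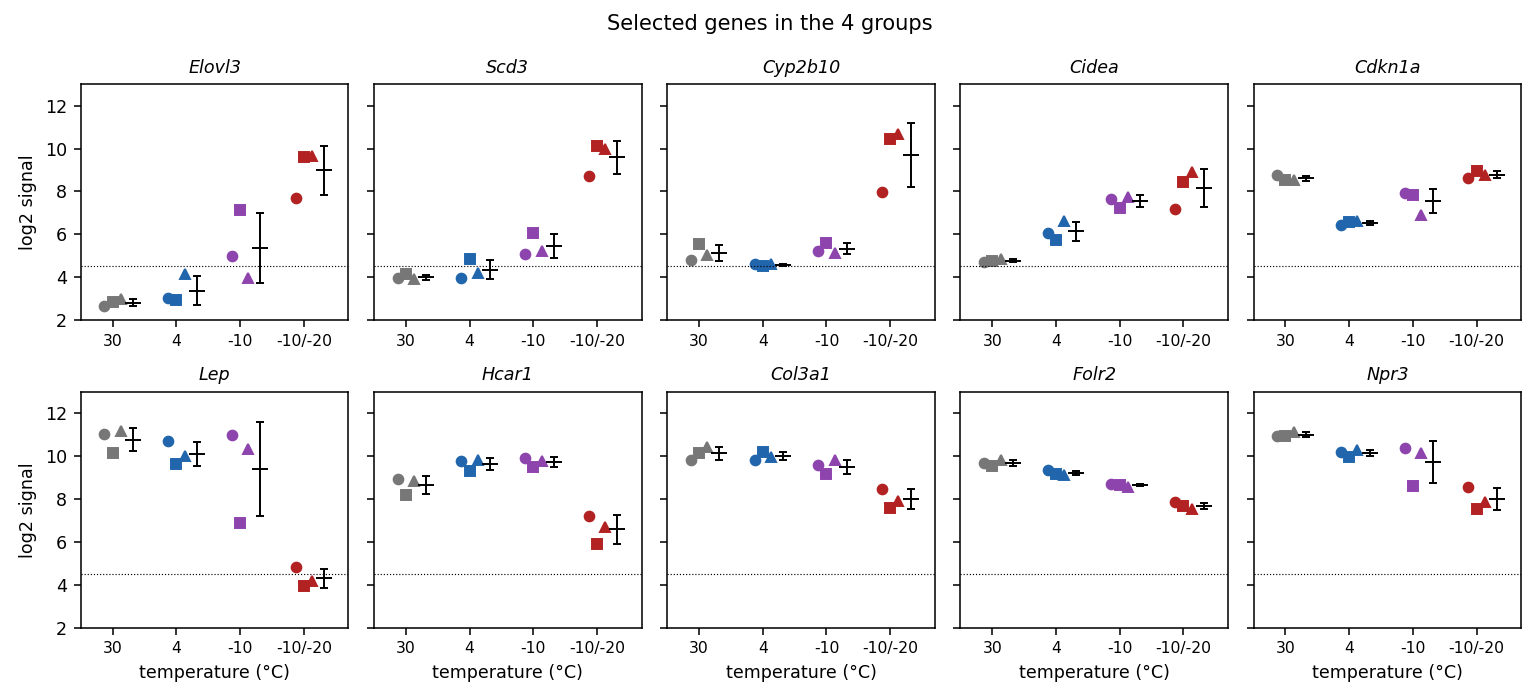
Log2 signal (y axis) of 10 genes on each of the 12 arrays, by temperature from 30°C to –10°C/–20°C (x axis). Circles, squares, and triangles are replicates 1, 2, and 3, bars are mean and SD (n = 3), and the dotted line is the background level of 4.52. Cyp2b10 and Hcar1 depart in the coldest group, the mean of Cidea climbs and that of Folr2 drops over the 4 groups, and Cdkn1a is lowest with 4°C.

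The form of the array names bore on the calls of the named genes. With it as a block, 70 of the 122 named genes that were called were called again and 52 were not. The block kept 13 of the 15 largest increases and 14 of the 15 largest decreases. Within the 8 arrays named with G, 1 of the 122 was called, under the assumption that the single 4°C array varies as other groups do. Across all genes limma called 2 there, with 2109 at an unadjusted p under 0.05. The differences against 4°C replicate 3 alone are given as a description, since that array also entered the calls and the choice of genes without overlap fixes their sign. They were more than 1.5 times smaller than with all 3 arrays in 4 named genes (Gpihbp1, Lum, Gas1, and Ifit1).

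**Figure D5:**
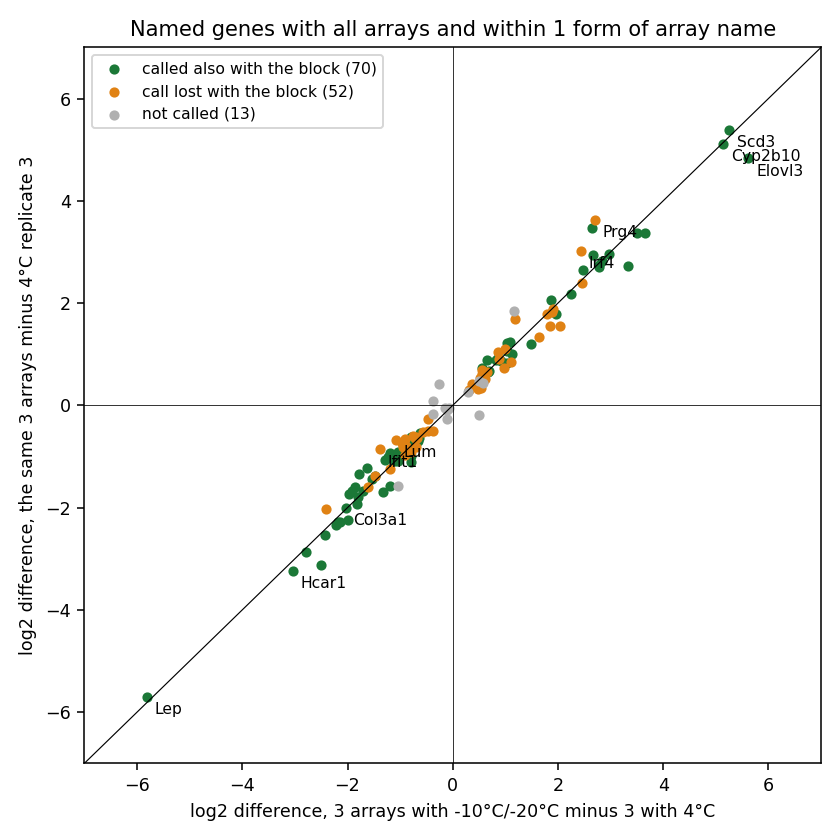
Log2 difference of the 135 named genes between the 3 arrays with –10°C/–20°C and 4°C replicate 3 alone (y axis) against the difference between the 3 arrays with –10°C/–20°C and all 3 with 4°C (x axis). Green marks the 70 genes also called with the array name form as a block, orange the 52 that were not, grey the 13 that were not called, and the diagonal marks equal values. 4°C replicate 3 enters both axes, so that the points are not independent of the diagonal, and they run from Lep at −5.81 to Elovl3 at 5.62 on the x axis.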

How the data were processed

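Epididymal fat was hybridized to Affymetrix Mouse Exon 1.0 ST arrays, 3 per temperature. The deposited values are log2 signals that the authors made with RMA in Affymetrix Expression Console, with versions not given in the sources used here. They were used as deposited. Of 23332 probe sets, 14996 carried 1 symbol. For 135 genes with several probe sets the one with the highest mean over 12 arrays was kept, which left 14860 genes, and 14805 of them were found in the RefSeq table. Groups came from the sample titles. A linear model over all 12 arrays was fitted with limma 3.58.1 (R 4.3.3), with moderated statistics and Benjamini-Hochberg adjustment over 14860 genes, and a gene was called at an adjusted p under 0.05. Differences are –10°C/–20°C minus 4°C, with the moderated standard error. The script was tested on simulated data. Tables and plots were made with Python 3.11.15, numpy 2.4.6, pandas 2.3.3, and matplotlib 3.10.9.

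A gene below the background level on all arrays of its dimmer group has a bound only, the brighter mean over the higher of background and the dim signal, and is given as at least that fold. Depth does not apply to arrays, and their number limits the precision. The genes and lists were chosen with earlier results of these data known. Named were the 15 largest increases and 15 largest decreases among called genes with arrays that do not overlap, up to 4 called members per list (or the 2 brightest where none was called), and genes the paper names. Alternatives were the methods' t-test, other scaling, filters, array weights, blocks, fewer arrays, and each array left out in turn. Probe sets with no symbol or several entered no comparison. Listed genes without a probe set of 1 symbol were not analysed here.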

Additional observations from a re-analysis of the deposited data

Results flagged for a closer look

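Probe sets outside the comparison also differed with –10°C/–20°C against 4°C. Of 7317 probe sets with no symbol, 22 were higher and 63 were lower, by limma at an adjusted p under 0.05. Of 1019 with several symbols, 10 were higher and 48 were lower. The adjustment ran over all 23332 probe sets, and by it 268 of the 14860 genes were higher and 780 lower. In both classes and both directions the share called was smaller than among these genes. The probe sets of both classes are given because the comparison of named genes does not use them.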

How the results depend on the processing

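Of 14860 genes, 1452 were called (376 higher, 1076 lower). The methods' t-test gave 2677 (788 higher, 1889 lower) at its unadjusted threshold and 88 (33 and 55) after Benjamini-Hochberg. The 6 arrays of the groups alone gave 874 (234 and 640), array weights 2639 (721 and 1918), and a minimum change of 2-fold 295 (99 and 196). The array name form as a block gave 705 (165 and 540), the 8 arrays named with G gave 2 (0 and 2), and 4°C replicate 3 as the only 4°C array gave 93 (45 and 48). Repeated quantile normalization gave 618 higher genes against 757 lower, and centring each array gave 822 against 479 and moved the median difference of −0.04 to 0.14. Without any 1 array the totals were 829 to 1507, with 223 to 392 higher and 594 to 1125 lower. They were 829 without 4°C replicate 1, 929 without 4°C replicate 2, 833 without –10°C/–20°C replicate 2, and 901 without –10°C/–20°C replicate 3. The cause of these changes was not tested, other than that fewer arrays enter some of the fits. A trend with a robust fit (1454), a filter on dim genes (1541 of 10771), and a fit on all probe sets (1048) stayed within 1.5 times of the total. The labels do not say whether the replicate numbers pair the arrays. Correlations of deviations between same-numbered arrays were 0.17, 0.096, and −0.39 for –10°C/–20°C with 4°C, and reached 0.54 between other groups. Deviations from means of 3 arrays cannot settle whether the arrays are paired. The replicate block gave 1548 genes. Of the 122 named genes that were called, 84 were called without each of the 12 arrays in turn, and 67 of those also with the name form as a block. No named gene changed direction and was called in any setting.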
